A study of Homo sapiens with 6 samples.

Results

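Cancer-testis antigen genes were followed across 6 RNA sequencing libraries of human thyroid cancer cell lines. The set holds 8 genes, MAGEA3, MAGEA4, MAGEA6, MAGEA12, PRAME, SSX1, GAGE12J and CTAG2, out of 58884 gene identifiers in the deposited table. They were chosen by name, with their levels in these libraries and their differences between them already known, so those values are given as a description and carry no test. BHT-101 and 8505C derive from anaplastic thyroid carcinoma and FTC-133 from follicular thyroid carcinoma. The groups were BHT-101 with siRNA against CRABP2 (siCRABP2) and BHT-101 with a control siRNA (siControl), FTC-133 with siCRABP2 and FTC-133 with siControl, and 8505C with a CRABP2-overexpressing vector (CRABP2 vector) and 8505C with an empty vector. With 1 library per condition, no replicate checks the differences described below. The sources used here do not state whether the 8505C vector cells were a clone or a pool.

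Cancer-testis genes are normally active in germ cells and silent in most other adult tissues, where methylation of CG dinucleotides at their promoters keeps them off. Many tumours express them, and peptides from their proteins are shown on HLA class I molecules, which makes them targets of immunotherapy. MAGE proteins bind RING-type ubiquitin ligases, as MAGEA3 and MAGEA6 do with TRIM28. PRAME is a substrate receptor of a CUL2 ubiquitin ligase and has been described in human cells as a repressor of retinoic acid receptor signalling, the pathway that CRABP2 feeds by carrying retinoic acid to the nucleus.

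In this set, 7 genes lie on chromosome X and PRAME on chromosome 22 (GRCh38, GENCODE release 29, all protein-coding). MAGEA3 (ENSG00000221867) spans 152698752 to 152702347 on the plus strand, and MAGEA6 (ENSG00000197172) spans 152766136 to 152769747 on the minus strand of the same cluster. Between them lies MAGEA12 (ENSG00000213401, 152733779 to 152737669, plus strand). MAGEA4 (ENSG00000147381) spans 151912509 to 151925170 on the plus strand and CTAG2 (ENSG00000126890) spans 154651972 to 154653579 on the minus strand. On the short arm lie SSX1 (ENSG00000126752, 48255317 to 48267444, plus strand) and GAGE12J (ENSG00000224659, 49322057 to 49329384, plus strand). PRAME (ENSG00000185686) spans 22547701 to 22559361 on the minus strand of chromosome 22.

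Promoters of the 4 MAGE-A genes, whose patterns across lines differed, and of SSX1, the member that differed most within FTC-133, are shown because CG dinucleotides, in capitals here, are where such promoters are methylated. Each sequence holds 250 bases before and 50 bases after a start site, from RefSeq on GRCh38.p14. The table held entries for 7 of the 8 genes. MAGEA3 and MAGEA6 carried the same 300 bases with 0 differences, so a single sequence stands for both, at chrX:152698544-152698843 (plus strand) and chrX:152769640-152769939 (minus strand). MAGEA12 is shown at chrX:152733612-152733911 (plus strand), the nearer of its 2 listed starts to the MAGEA3 sequence by aligned length, MAGEA4 at chrX:151912224-151912523 (plus strand), the first of its 5 listed starts, and SSX1 at chrX:48255142-48255441 (plus strand).
MAGEA3 and MAGEA6: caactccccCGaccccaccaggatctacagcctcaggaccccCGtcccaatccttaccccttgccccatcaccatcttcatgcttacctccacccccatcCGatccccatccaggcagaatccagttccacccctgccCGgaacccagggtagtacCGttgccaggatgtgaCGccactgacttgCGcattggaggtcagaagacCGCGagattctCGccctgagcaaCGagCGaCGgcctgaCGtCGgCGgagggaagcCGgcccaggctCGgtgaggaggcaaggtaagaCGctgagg
MAGEA12: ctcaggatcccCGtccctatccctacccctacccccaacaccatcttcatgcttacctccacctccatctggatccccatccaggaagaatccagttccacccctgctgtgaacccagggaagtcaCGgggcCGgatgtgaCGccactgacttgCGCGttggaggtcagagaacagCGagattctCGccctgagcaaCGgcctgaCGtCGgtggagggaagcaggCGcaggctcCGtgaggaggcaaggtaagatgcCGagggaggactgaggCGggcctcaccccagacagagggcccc
MAGEA4: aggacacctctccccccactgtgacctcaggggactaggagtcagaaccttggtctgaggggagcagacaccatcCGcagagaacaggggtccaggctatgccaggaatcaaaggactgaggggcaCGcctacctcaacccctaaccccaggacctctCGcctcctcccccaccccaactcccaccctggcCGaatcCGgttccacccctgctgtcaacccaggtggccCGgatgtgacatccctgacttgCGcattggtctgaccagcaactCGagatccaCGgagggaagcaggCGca
SSX1: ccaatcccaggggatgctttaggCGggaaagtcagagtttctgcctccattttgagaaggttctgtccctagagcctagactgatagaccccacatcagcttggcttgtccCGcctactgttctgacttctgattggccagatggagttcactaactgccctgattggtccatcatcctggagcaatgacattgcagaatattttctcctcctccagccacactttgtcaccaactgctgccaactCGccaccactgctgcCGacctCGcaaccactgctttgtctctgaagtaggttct

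The MAGEA3 and MAGEA6 sequence held 19 CG dinucleotides, the MAGEA12 sequence 15, the MAGEA4 sequence 10 and the SSX1 sequence 5, against a median of 14 over 35116 promoters of that length. These counts depend on the start shown, as the other MAGEA12 start held 9 and the other MAGEA4 starts 11 to 15. MAGEA12 matched MAGEA3 at 86.7% of 270 aligned columns, and MAGEA4 did so at 67.5% of 209 columns. An ETS-type sequence, CCGGAA, searched on both strands, occurred in the MAGEA3 and MAGEA6 promoter, as in 17.2% of all promoters. CCGGAA was not among the letters of the other 3 sequences. CAGGAA, searched in the same way and sharing the GGAA core, occurred in the MAGEA12 and MAGEA4 sequences and in 28.4% of all promoters. It had 0 matches at the other listed MAGEA4 starts. Other ETS-type sequences, such as the CCGGAT held by the MAGEA12 and MAGEA4 sequences, were not searched over all promoters. These matches describe the letters only.

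Near-identical copies limit what a value of a single gene means here. Of the 50-base windows in GAGE12J transcripts, 89.8% also occurred in transcripts of another gene, most often GAGE13, and 63.5% of 150-base windows did. MAGEA3 shared 56.5% of its 50-base windows, 34.9% of its 100-base windows and 27.1% of its 150-base windows with another gene, chiefly MAGEA6. For MAGEA6 these shares were 53.9%, 33.0% and 25.6%. CTAG2 shared 43.1%, 24.5% and 9.77% with CTAG1A and CTAG1B. Lower shares were found for MAGEA12 (13.8%, 3.54% and 0.961%), MAGEA4 (7.33%, 2.45% and 0.301%) and SSX1 (8.81% at 50 bases and 0% at the longer lengths). PRAME shared 0% at every length. Read length and the treatment of reads that fit several places are unstated in the sources at hand, so levels of GAGE12J, MAGEA3, MAGEA6 and CTAG2 are uncertain between copies. MAGEA12 also overlaps the pseudogene CSAG4 on the same strand over 3843 bases, and MAGEA4 overlaps its antisense gene MAGEA4-AS1 over 1460 bases.

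**Figure D1:**
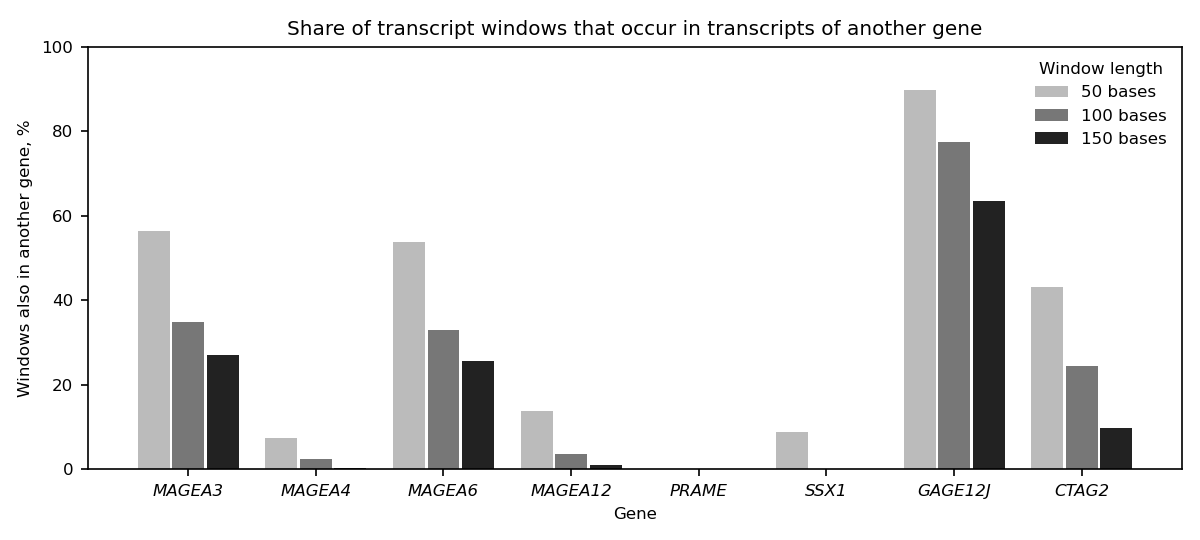
Bars give, for each of the 8 antigen genes, the percentage of distinct transcript windows of 50, 100 or 150 bases (grey to black) that also occur in an annotated transcript of another gene on either strand. GAGE12J stands at 89.8% to 63.5%, MAGEA3 and MAGEA6 between 56.5% and 25.6%, and PRAME at 0%.

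The libraries held 22084110 to 27958622 counted reads, recovered from the FPKM values. CRABP2 went with the labels, at 11.4 FPKM with siCRABP2 and 27.3 FPKM with siControl in BHT-101, at 0.170 and 8.94 FPKM in FTC-133, and at 38.0 FPKM with the CRABP2 vector and 0.607 FPKM with the empty vector in 8505C. Of 7 thyroid markers, PAX8 and NKX2-1 reached 1 FPKM in FTC-133, NKX2-1 alone did in 8505C, and 0 did in BHT-101. Of 6 epithelial markers, 6 reached 1 FPKM in both BHT-101 libraries, 4 in both FTC-133 libraries and 3 in both 8505C libraries. The keratins KRT8 and KRT18, from that list, were at 18.2 FPKM or more in every library, while others of it stayed below 1 FPKM in FTC-133 and 8505C. Of 9 germ cell markers, 0 reached 1 FPKM in any library, their summed level was 0.039 to 0.136 FPKM, and 4 to 7 of them were at 0. Of 10 markers of other cell types, 0 to 2 reached 1 FPKM in a library, with sums of 0.905 to 19.8 FPKM, and 2 to 4 were at 0.

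Each line expressed its own combination of the antigens. In BHT-101, 3 of the 8 genes reached 1 FPKM in both libraries (MAGEA3, MAGEA6 and CTAG2), in FTC-133 6 did (all but PRAME and GAGE12J), and in 8505C 4 did with the CRABP2 vector and 3 with the empty vector (MAGEA3, MAGEA6, MAGEA12 and, with the CRABP2 vector, GAGE12J). MAGEA3 and MAGEA6 were the members above this level in all 6 libraries. In bulk RNA, fewer cells expressing a gene and less RNA of it per cell cannot be told apart. The pair of libraries of a line differ in treatment, so the spread between them is not replicate error.

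**Figure D2:**
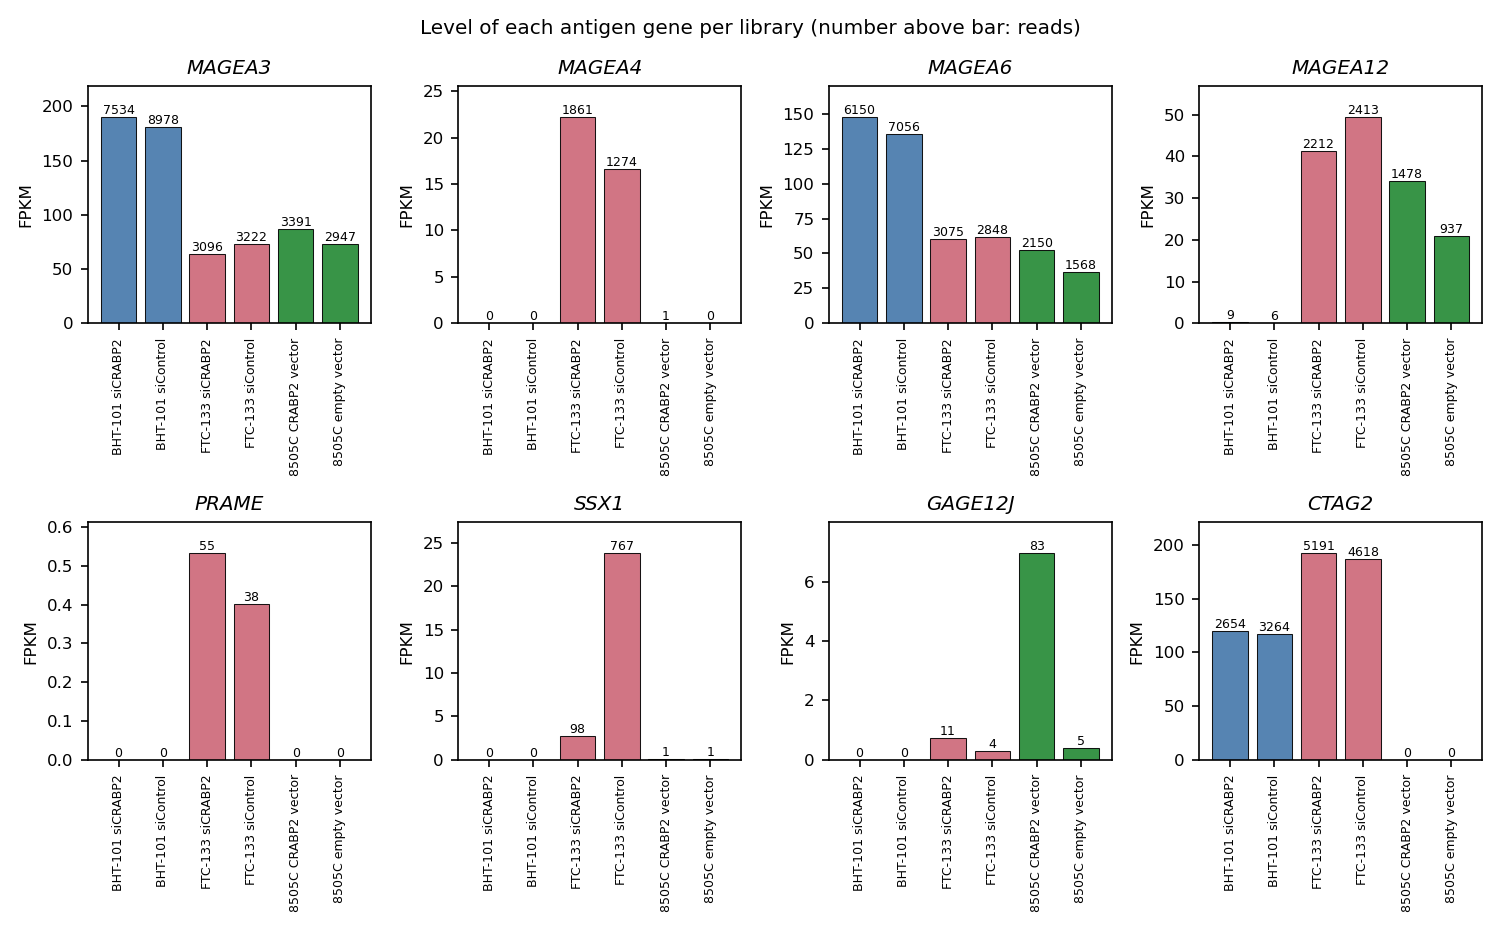
Bars give FPKM of each antigen gene in the 6 libraries, on a scale of its own for each gene, with the number of reads above each bar. Bars are blue for BHT-101, red for FTC-133 and green for 8505C. CTAG2 stands at 118 to 192 FPKM in BHT-101 and FTC-133 and at 0 in 8505C, and SSX1 is high only in the FTC-133 siControl library among the 6.

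MAGEA3, which partners TRIM28 in a ubiquitin ligase that acts on AMP-activated kinase, was at 190.2 FPKM with siCRABP2 and 181 FPKM with siControl in BHT-101, at 64.2 and 73.2 FPKM in FTC-133, and at 86.6 FPKM with the CRABP2 vector and 72.7 FPKM with the empty vector in 8505C. Both BHT-101 libraries lay above the other 4, whereas the values of FTC-133 and 8505C overlapped. It ranked 194 and 189 among 19945 protein-coding genes in the BHT-101 siCRABP2 and siControl libraries.

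MAGEA6, its close copy with the same kind of partner, was at 148 and 135 FPKM in BHT-101 with siCRABP2 and siControl, at 60.7 and 61.6 FPKM in FTC-133, and at 52.3 and 36.8 FPKM in 8505C with the CRABP2 and the empty vector. Its lines did not overlap, with BHT-101 highest and 8505C lowest. The ratio of MAGEA3 to MAGEA6 FPKM was 1.29 and 1.34 in BHT-101, 1.06 and 1.19 in FTC-133, and 1.66 and 1.97 in 8505C, in the same order of libraries, so MAGEA3 was the higher of the pair in each library. The part in this ratio of how reads were divided between the copies was not tested.

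MAGEA12, a further MAGE-A protein of the same cluster, followed another pattern. It was at 0.205 FPKM (9 reads) and 0.109 FPKM (6 reads) in BHT-101 with siCRABP2 and siControl, at 41.4 and 49.5 FPKM in FTC-133, and at 34.1 and 20.9 FPKM in 8505C with the CRABP2 and the empty vector. BHT-101 thus held the highest MAGEA3 and MAGEA6 levels and the lowest MAGEA12 level, although MAGEA12 lies between the other two on the chromosome.

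Along that cluster, the order of lines differed between genes. CSAG1, a cancer-testis gene that starts head to head with MAGEA12, was at 0.369 and 0.557 FPKM in BHT-101 with siCRABP2 and siControl, at 51.5 and 45.7 FPKM in FTC-133, and at 26.3 and 14.5 FPKM in 8505C with the CRABP2 and the empty vector, the same order of lines as MAGEA12. CSAG2 and CSAG3, which lie beside MAGEA3 and MAGEA6, had the other order: CSAG2 was at 17.3 and 8.19 FPKM in BHT-101, 2.24 and 2.16 FPKM in FTC-133, and 0.0418 and 1.33 FPKM in 8505C. CSAG3 was at 18.5 and 15.8 FPKM, 5.54 and 2.34 FPKM, and 0.209 and 1.09 FPKM in the same order. MAGEA2B and MAGEA2, which start head to head with CSAG2 and CSAG3, did not share their levels. They were at most 0.425 and 0.571 FPKM in any library. MAGEA2B and MAGEA2 each matched 9.53% of the 50-base windows of MAGEA12. Windows that MAGEA2B, MAGEA2, CSAG2 and CSAG3 share with each other were not counted. Any part of read assignment in their levels was not tested, so low values do not show that a gene was silent. The flanking housekeeping gene CETN2, a centrin, was between 18.7 and 30.9 FPKM in all 6 libraries.

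**Figure D3:**
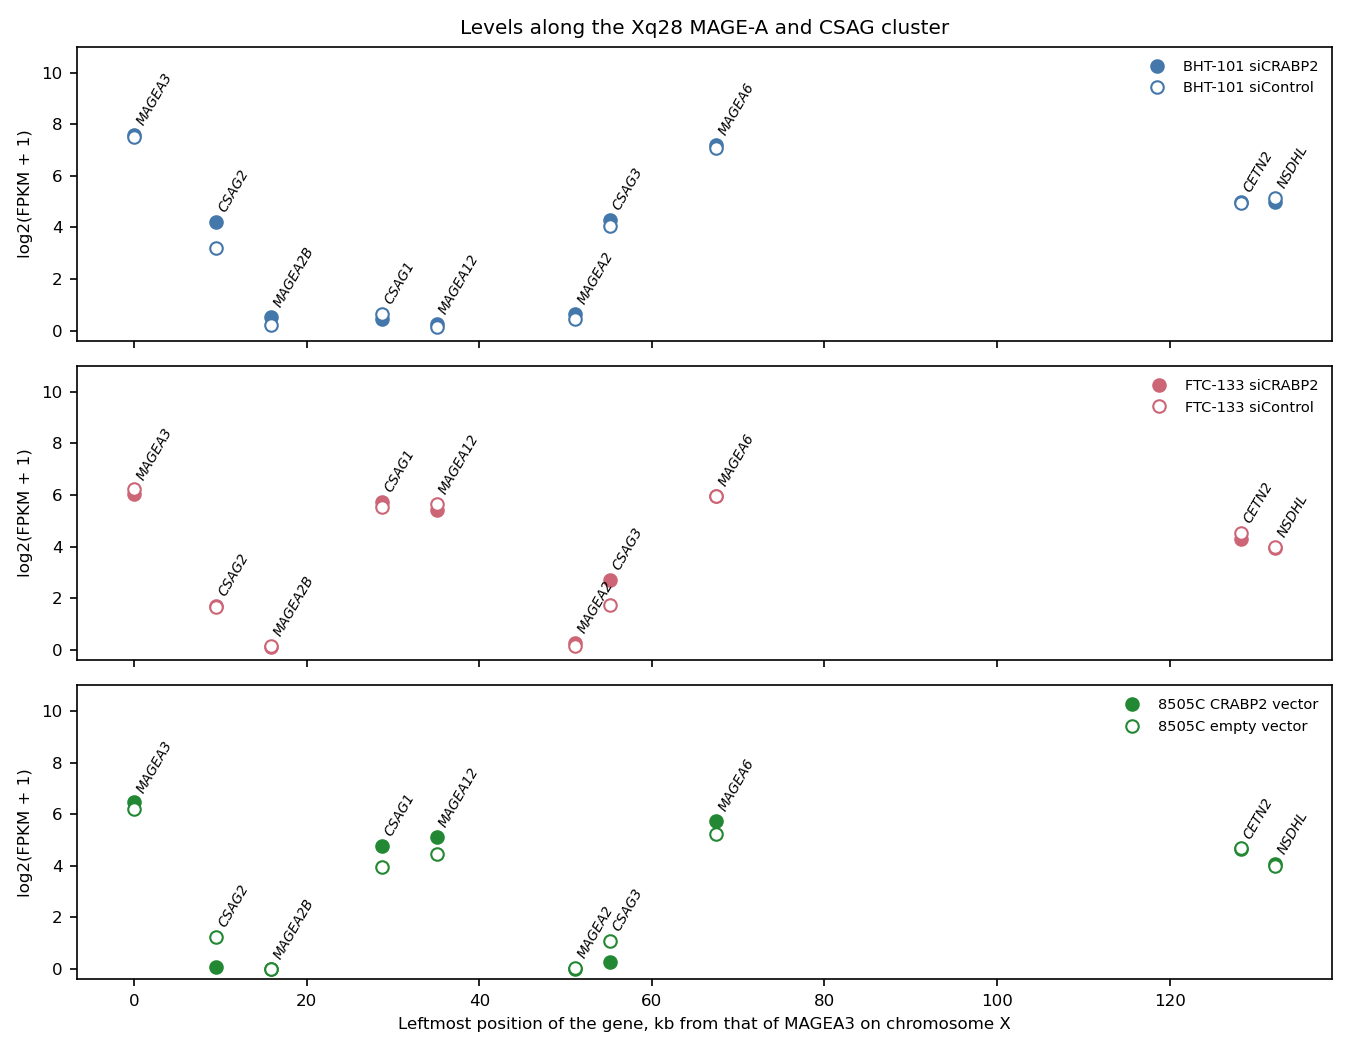
Each panel shows a line, with log2(FPKM + 1) of protein-coding genes against the distance of each gene's leftmost base from that of MAGEA3 in kb. Filled points are the siCRABP2 or CRABP2 vector library and open points the siControl or empty vector library. MAGEA3 and MAGEA6 are high in every panel, while CSAG1 and MAGEA12 lie near 0 in BHT-101 alone among the 3 lines.

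MAGEA4, a MAGE-A protein used as a target of T cell therapy, was found in FTC-133, at 22.2 FPKM (1861 reads) with siCRABP2 and 16.7 FPKM (1274 reads) with siControl. In 8505C it had 1 read with the CRABP2 vector and 0 reads with the empty vector, and it had 0 reads in both BHT-101 libraries. A count of 0 allows up to 0.0436 FPKM in the BHT-101 siCRABP2 library and 0.0348 FPKM in the siControl library, taking 3 reads as the floor.

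CTAG2, which encodes the NY-ESO-1 relative LAGE-1, was at 119.6 and 118 FPKM in BHT-101 with siCRABP2 and siControl and at 192 and 187 FPKM in FTC-133, where it ranked 184 and 170 among protein-coding genes. Both 8505C libraries had 0 reads, which allows up to 0.137 FPKM with the CRABP2 vector and 0.132 FPKM with the empty vector. The order of lines was therefore FTC-133, BHT-101 and 8505C, with no overlap. Nearly all reads of the CTAG family of 3 genes were assigned to CTAG2, with 5191 of 5195 in FTC-133 with siCRABP2 and 4618 of 4624 with siControl. CTAG1A and CTAG1B each matched 43.1% of the 50-base windows of CTAG2. Windows that CTAG1A and CTAG1B share with each other were not counted. Their low counts therefore do not show that they were silent.

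PRAME was the member with the lowest peak level. It had 55 reads (0.532 FPKM) with siCRABP2 and 38 reads (0.402 FPKM) with siControl in FTC-133, and 0 reads in each of the other 4 libraries, which allows at most 0.0357 FPKM in any of them. It never reached 1 FPKM, and the counting interval of the log2 read ratio in FTC-133, -0.22 to 1.04, included 0.

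SSX1, a nuclear repressor protein whose gene is fused to SS18 in synovial sarcoma, was likewise found in FTC-133, at 2.78 FPKM (98 reads) with siCRABP2 and 23.8 FPKM (767 reads) with siControl. It had 0 reads in both BHT-101 libraries and 1 read in each 8505C library. GAGE12J, from a family of small acidic antigens, was at 0.748 FPKM (11 reads) and 0.298 FPKM (4 reads) in FTC-133 with siCRABP2 and siControl, at 6.95 FPKM (83 reads) and 0.404 FPKM (5 reads) in 8505C with the CRABP2 and the empty vector, and at 0 in BHT-101.

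The change with CRABP2 knockdown or vector was then described within each line. A gene was counted as measured with at least 1 FPKM in 1 or both libraries and called by size where they differed by at least 1 on log2(FPKM + 1). Ratios below are log2 ratios of depth-scaled reads, with 95% exact (Clopper-Pearson) intervals that cover counting error only. They compare libraries, not conditions.

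In BHT-101, 0 of the 3 measured members were at least 2-fold higher or lower with siCRABP2. Over all 12055 measured genes, 0.589% were called higher and 0.539% lower. MAGEA6 had a log2 read ratio of 0.13 (0.08 to 0.17), MAGEA3 of 0.07 (0.03 to 0.11) and CTAG2 of 0.03 (-0.05 to 0.10). Under quantile normalization the difference of MAGEA3 was -0.02 and that of CTAG2 -0.04 on log2(FPKM + 1), so their direction in BHT-101 depends on the scaling.

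In FTC-133, SSX1 was the 1 member of 6 measured that was called, with a log2 read ratio of -3.10 (-3.42 to -2.79) for siCRABP2 over siControl, an 8.57-fold lower level. On log2(FPKM + 1) the difference was -2.72. Called lower in this comparison were 2.35% of 12832 measured genes, and 2.36% were called higher. Because SSX1 was chosen for this difference, nothing is read from its share. MAGEA4 lay the other way, at 0.42 (0.31 to 0.52), although the MAGE-A family summed as a whole gave -0.16 on log2(FPKM + 1), while MAGEA12 was at -0.26 (-0.34 to -0.17) and MAGEA3 at -0.19 (-0.26 to -0.12). MAGEA6 at -0.02 (-0.09 to 0.05) and CTAG2 at 0.04 (-0.02 to 0.10) had intervals that included 0, and their signs turned under median-ratio scaling for MAGEA6 (0.05) and under quantile normalization for CTAG2 (-0.09).

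Other SSX genes near SSX1 were far lower in level. SSX5, its neighbour on the chromosome, was at 0.124 FPKM (5 reads) with siCRABP2 and 1.55 FPKM (57 reads) with siControl in FTC-133, a log2 read ratio interval of -5.32 to -2.34. Summed over the SSX family of 8 genes, FTC-133 held 103 reads with siCRABP2 and 832 with siControl, of which SSX1 gave 98 and 767. SSX5 passed the minimum of 1 FPKM through the siControl library alone. In FTC-133, SSX2, SSX3 and SSX7 had 0 reads with siCRABP2 and 2, 5 and 1 with siControl. SSX2B, SSX4 and SSX4B had 0 reads in both. With SSX1 chosen for its difference and the rest so low, nothing is read from the direction over the family. SSX pseudogenes are not in the sum, and any part of read assignment in the SSX1 level was not tested.

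In 8505C, all 4 measured members had more depth-scaled reads with the CRABP2 vector, and 1, GAGE12J, was called by size. GAGE12J passed the minimum of 1 FPKM through that library alone. Its log2 read ratio was 4.10 (2.82 to 5.76), a 17.2-fold higher level, and its difference on log2(FPKM + 1) was 2.50, or 3.80 with a pseudocount of 0.1. Among 11731 measured genes 1.85% were called higher and 1.86% lower, and here too the choice of GAGE12J for its difference leaves nothing to read from the count. MAGEA12 followed at 0.71 (0.59 to 0.83), MAGEA6 at 0.50 (0.41 to 0.60) and MAGEA3 at 0.25 (0.18 to 0.32). Summed over all 13 MAGE-A genes the difference on log2(FPKM + 1) was 0.42. The GAGE family of 13 genes in the table held 92 reads with the CRABP2 vector and 8 with the empty vector, of which GAGE12J gave 83 and 5, so the family sum moved with it. In BHT-101, where GAGE12J had 0 reads, the family held 52 and 80 reads with siCRABP2 and siControl, most of them assigned to GAGE2A (44 and 65).

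**Figure D4:**
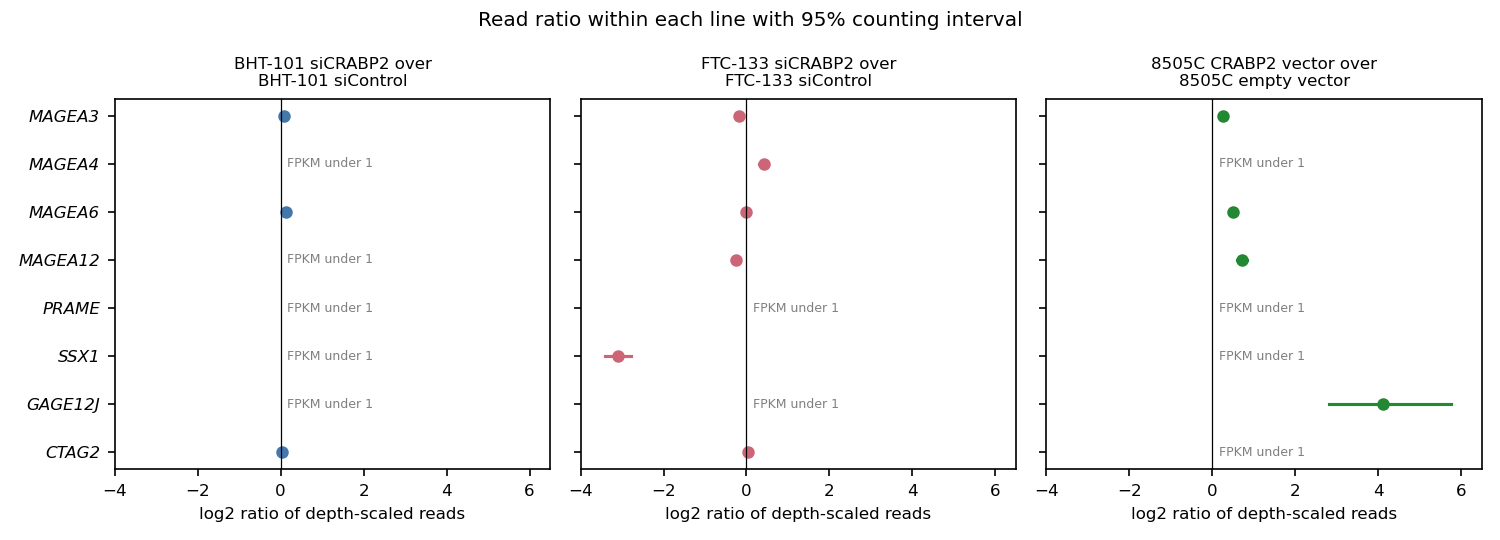
Points give the log2 ratio of depth-scaled reads (CRABP2 knockdown over siControl, or CRABP2 vector over empty vector) for members with at least 1 FPKM in the line, and lines the 95% exact counting interval, often narrower than the point. SSX1 in FTC-133 (-3.10) and GAGE12J in 8505C (4.10) stand apart from the others, which lie between -0.26 and 0.71.

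Wider lists of cancer-testis genes placed the members among their families. Of 119 genes in testis-restricted lists, 16 were measured in BHT-101, 34 in FTC-133 and 16 in 8505C, and 6 were measured in all 3 lines (CSAG2, CSAG3, MAGEA3, MAGEA6, MAGEB2 and SPANXB1). In 8505C, CSAG2 and CSAG3 reached 1 FPKM with the empty vector only, and SPANXB1 with the CRABP2 vector only (21 reads against 0). In BHT-101, SPANXB1 reached it with siControl only (15 reads). FTC-133 alone accounted for 17 genes, BHT-101 alone for 7 and 8505C alone for 2. The lists summed to 800.3 and 727 FPKM in BHT-101 with siCRABP2 and siControl, 981 and 1054 FPKM in FTC-133, and 237 and 189.8 FPKM in 8505C with the CRABP2 and the empty vector. Of these sums the 8 members made up 458 and 434 FPKM in BHT-101, 385 and 413 FPKM in FTC-133, and 179.9 and 131 FPKM in 8505C.

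The highest of the other genes, PAGE5, was high in BHT-101 and FTC-133 and near 0 in 8505C, at 245 and 209 FPKM in BHT-101 with siCRABP2 and siControl, 132 and 142 FPKM in FTC-133, and 0.244 and 0.0589 FPKM in 8505C with the CRABP2 and the empty vector. MAGEC2, a TRIM28-binding MAGE protein, was an FTC-133 gene at 115 and 145 FPKM, against at most 1.82 FPKM in the other 4 libraries. PAGE2 was at 75.2 and 79.7 FPKM in FTC-133 and 9.07 and 6.44 FPKM in BHT-101, and at most 0.206 FPKM in 8505C. MAGEB2 was at 10.2 FPKM or more in all 6 libraries. MAGEA1, the founding member of the family, was at 35.5 and 45.1 FPKM in FTC-133, 6.51 and 3.40 FPKM in 8505C with the CRABP2 and the empty vector, and at most 0.131 FPKM in BHT-101.

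Within the MAGE-A family of 13 genes, all 5 that were measured in 8505C were above 0 for the CRABP2 vector. Their median difference was 0.68 on log2(FPKM + 1), beside 0.02 over all measured genes, of which 6191 of 11731 were above 0. Of the 5, MAGEA3, MAGEA6 and MAGEA12 are members, and MAGEA10 passed the minimum only through the CRABP2 vector library (2.33 against 0.936 FPKM). MAGEA11, below the minimum in both 8505C libraries, lay the other way (19 reads against 44 with the empty vector). Nothing is read from the count of 5. In FTC-133 4 of 9 were above and 5 below 0 with siCRABP2 (median -0.02, beside -0.04 over all genes), and in BHT-101 both measured genes were above 0 (median 0.10, beside 0.01). Near-identical copies make these genes less than independent. Leaving out the members, the testis-restricted lists held 1 gene called higher and 5 called lower of 12 measured in 8505C, 1 higher and 1 lower of 28 in FTC-133, and 0 of 13 in BHT-101. Over all measured genes 1.85% were called higher and 1.86% lower in 8505C, 2.36% and 2.35% in FTC-133, and 0.589% and 0.539% in BHT-101. Each of these called genes reached 1 FPKM only in the library where it was high, so it passed the minimum through that library and nothing is read from the counts. VCX3B, from another X-linked family of near-identical copies, was the largest of these, at 0.462 FPKM (12 reads) with the CRABP2 vector and 12.4 FPKM (332 reads) with the empty vector in 8505C. Its copies VCX and VCX3A were lower with the CRABP2 vector too, with 1 against 93 reads and 7 against 89 reads. Other genes of the lists lay above 0 with the CRABP2 vector, among them MAGEA1 (0.77 on log2(FPKM + 1)), CSAG1 (0.82) and MAGEB2 (0.33), so the 12 split into 5 above and 7 below 0.

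**Figure D5:**
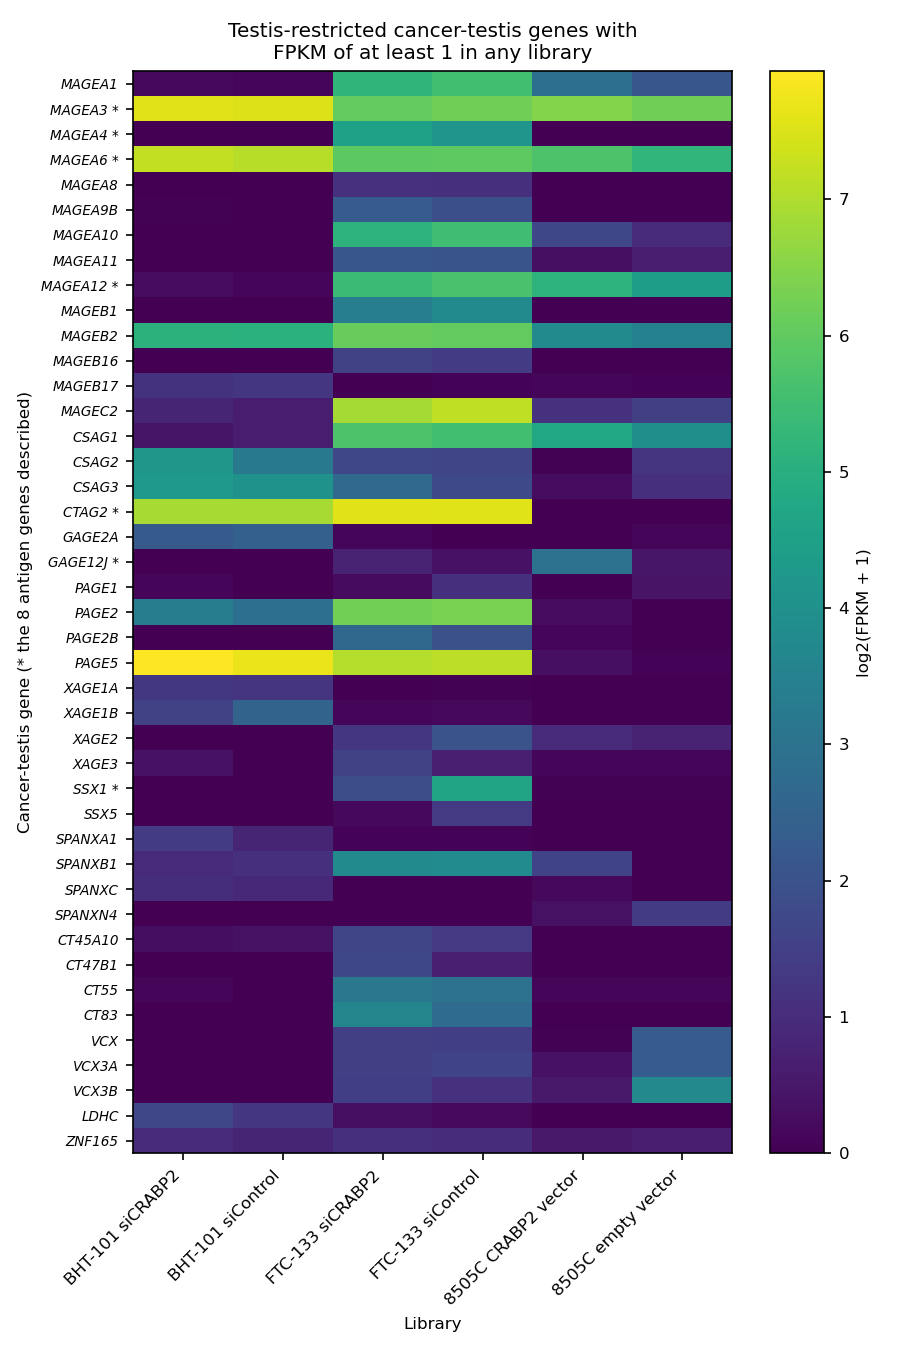
Colour gives log2(FPKM + 1) of the 43 testis-restricted cancer-testis genes with at least 1 FPKM in any library (rows, the 8 antigen genes starred where shown; PRAME stays below that level) in the 6 libraries (columns). FTC-133 has 34 measured genes, against 16 each in BHT-101 and 8505C, and MAGEA3 and MAGEA6 are bright in all columns.

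Of 9 genes of MAGE and SSX partner proteins, 7 were measured in BHT-101 and 9 in each other line. TRIM28, the ligase partner of MAGEA3, MAGEA6 and MAGEC2, was at 67.9 and 75.7 FPKM in BHT-101 with siCRABP2 and siControl, 84.6 and 120.2 FPKM in FTC-133, and 41.5 and 42.2 FPKM in 8505C with the CRABP2 and the empty vector. CUL2, the scaffold of the PRAME ligase, lay between 7.30 and 19.7 FPKM, and SS18, the fusion partner of SSX1, between 9.03 and 15.6 FPKM. Over all measured genes, 0.539% to 2.36% were called in each direction within a line. All 10 PRAME partner genes were measured in every line, with 0 called, so nothing is read from that count. Among them the retinoic acid receptor RARB was at 8.41 FPKM with the CRABP2 vector and 4.93 FPKM with the empty vector in 8505C (log2 read ratio interval 0.60 to 0.95), RARG at 2.52 and 1.49 FPKM, and RARA at 4.18 and 6.97 FPKM in FTC-133 with siCRABP2 and siControl. EZH2, the methyltransferase that PRAME is described to recruit, was at 18.0 and 18.8 FPKM in BHT-101, 14.7 and 19.4 FPKM in FTC-133, and 2.49 and 1.87 FPKM in 8505C.

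Of 20 DNA methylation and silencing genes, 16 were measured in BHT-101 and 17 in each other line. In FTC-133 1 was called lower, where 2.35% of all measured genes were. In the other lines 0 were called, where 0.539% to 1.86% of all measured genes were called in each direction. UHRF1, which brings the maintenance methyltransferase to replicated DNA, was at 6.76 FPKM with siCRABP2 and 18.7 FPKM with siControl in FTC-133 (log2 read ratio interval -1.58 to -1.36). In 8505C it lay higher with the CRABP2 vector, at 3.19 FPKM, against 1.28 FPKM with the empty vector (interval 1.05 to 1.61). In FTC-133 11 of 17 measured genes of the list were below 0, beside 6914 of 12832 over all measured genes, with a median of -0.21 beside -0.04. DNMT1, the maintenance methyltransferase, was at 21.2 and 31.0 FPKM in FTC-133 with siCRABP2 and siControl, the deacetylase HDAC1 at 36.5 and 69.7 FPKM, and the methyltransferase EHMT2 at 6.66 and 10.8 FPKM, whereas the de novo methyltransferase DNMT3B lay the other way at 8.28 and 5.92 FPKM. Of the antigen genes, MAGEA4 was higher and SSX1 lower in that same comparison. DNA methylation was not measured, and any part of these genes in the antigen levels was not tested.

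Antigen peptides are shown on HLA class I molecules. HLA-B, which encodes a heavy chain of these molecules, was at 10.5 and 4.61 FPKM in BHT-101 with siCRABP2 and siControl, 74.3 and 52.4 FPKM in FTC-133, and 119 and 122 FPKM in 8505C with the CRABP2 and the empty vector. In BHT-101 it was the 1 gene called among 15 antigen presentation genes, while 0 were called in the other lines. Of all measured genes, 0.589% were called higher in BHT-101, and 1.85% to 2.36% were called in each direction in the other lines. B2M, the light chain of class I molecules, was at 228 and 167 FPKM in BHT-101 with siCRABP2 and siControl, 232 and 158 FPKM in FTC-133, and 444 and 381 FPKM in 8505C with the CRABP2 and the empty vector. Of the list, 13 of 14 measured genes were above 0 with siCRABP2 in BHT-101 (median difference 0.15, beside 0.01 over all genes), 11 of 15 in FTC-133 (0.23, beside -0.04) and 5 of 14 with the CRABP2 vector in 8505C (-0.09, beside 0.02). Over all measured genes 6422 of 12055, 5918 of 12832 and 6191 of 11731 were above 0 in the same order of lines.

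By Pearson correlation of log2(FPKM + 1) over the 6 libraries, 8594 protein-coding genes with at least 5 FPKM in a library were compared with each of the 7 members other than PRAME, which stayed below that level. The genes most like SSX1 were TRIL, a Toll-like receptor accessory protein (r = 0.999, at 1.78 FPKM with siCRABP2 and 8.29 FPKM with siControl in FTC-133), and SBSPON (r = 0.998). Those most like GAGE12J were WASHC3, of the endosomal WASH complex (r = 0.984), and ZNF438 (r = 0.979). MAGEA4 was closest to PNMA5 and to RPL10L, a testis-expressed ribosomal protein paralog, CTAG2 to the AP-1 subunit JUNB and the deubiquitinase JOSD2, MAGEA3 to TGIF2 and the dyskerin gene DKC1 (r = 0.998 and 0.997), MAGEA6 to MRPS28 and STXBP2 (r = 0.999 and 0.997), and MAGEA12 to PPP2CB and METTL6 (r = 0.998 and 0.997). The libraries come from 3 lines, so any gene with the same order of lines scores high, and between 0 (GAGE12J) and 128 (CTAG2) genes exceeded 0.99.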

How the data were processed

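RNA was extracted with Trizol from 6 samples of thyroid cancer cells and sequenced from standard Illumina libraries, per the labels' protocols. The authors deposited FPKM values, with 1 column per library. FastQC, Trimmomatic 0.38 and featureCounts 2.0.0 on GRCh38 are named in the submitters' processing notes. Aligner, annotation release and use of strand: not given in the sources used here. Reads were recovered because FPKM times exon length is a whole multiple of what 1 read is worth. With the GENCODE release 29 length 74.9% of 33848 genes above 0 gave whole reads in all libraries, and with a searched length 99.9% did, at a tolerance of 0.001 reads. For genes with few reads that length is not unique.

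The members and lists were chosen with earlier results of these data known. As every group has 1 library, genes were given no test. Counts use a difference of at least 1 on log2(FPKM + 1) with FPKM of at least 1 in a line, which understates changes of low genes. Levels of 0 reads were bounded at 3 reads. The steps were tested on simulated data (Python 3.11.15, scipy 1.17.1, Biopython 1.88). Alternatives were a pseudocount of 0.1, median-ratio scaling, quantile normalization, no filter, FPKM of at least 5, recovered reads with 0.5 added, and sums over gene families. Named genes were CRABP2, the 8 members, the 8 other cancer-testis genes with the highest FPKM and those called at 5 FPKM or more, up to 4 genes per other list, the members' known binding partners, and the 2 most correlated genes per member. SSX5, VCX, VCX3A, GAGE2A, CSAG2, CSAG3, MAGEA2, MAGEA2B, MAGEA10, MAGEA11, CETN2, DNMT1, DNMT3B and B2M were named after their values were seen.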

Additional observations from a re-analysis of the deposited data

Results flagged for a closer look

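MAGEA3 lay in opposite directions in the 2 knockdown lines, with counting intervals that leave out 0 in both. Its difference on log2(FPKM + 1) between siCRABP2 and siControl was 0.07 in BHT-101, whereas it was -0.19 in FTC-133. The difference between the lines was not tested. Under quantile normalization BHT-101 had -0.02 and FTC-133 had -0.24, so the opposite directions depend on the scaling.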

How the results depend on the processing

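The counts of members called at least 2-fold higher or lower were the same under each of the 7 alternatives in each line. SSX1 in FTC-133 ran from -3.09 (recovered reads) to -2.62 (median-ratio scaling) and GAGE12J in 8505C from 2.45 (quantile normalization) to 3.97 (recovered reads). Counts over all genes, higher and lower, moved to 174 and 128 in BHT-101, 561 and 717 in FTC-133, and 478 and 417 in 8505C with a pseudocount of 0.1. With recovered reads they were 185 and 128, 601 and 793, and 517 and 454. With FPKM of at least 5 they were 21 and 13, 169 and 154, and 102 and 106. Without these changes they were 71 and 65, 303 and 302, and 217 and 218. Of 13 differences of measured members, 10 kept their sign under quantile normalization (MAGEA3 and CTAG2 in BHT-101 and CTAG2 in FTC-133 did not), 12 under median-ratio scaling (MAGEA6 in FTC-133 did not) and 12 with family sums, where MAGEA4 in FTC-133 takes the MAGE-A sum at -0.16. All 13 kept it under the other alternatives. A filter leaves a single difference unchanged and a pseudocount cannot turn its sign, so the agreement under those was fixed in advance. The cause was not tested. No paired analysis was possible because each condition has 1 library and the result comes from no test. Few reads limit PRAME and, outside the 8505C CRABP2 vector library, GAGE12J.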

Other observations

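Among 12 cancer-testis genes that are also widely expressed outside the testis, several act in cell division. The kinetochore scaffold gene KNL1 was at 1.69 and 1.45 FPKM in BHT-101 with siCRABP2 and siControl, 5.14 and 7.59 FPKM in FTC-133, and 8.31 and 0.290 FPKM in 8505C with the CRABP2 and the empty vector. The mitotic kinase gene PBK was at 21.4 and 15.5 FPKM in BHT-101, 70.4 and 89.5 FPKM in FTC-133, and 2.21 and 0.285 FPKM in 8505C. CEP55, which acts in the last step of cell division, was at 19.5 and 16.1 FPKM, 43.1 and 50.1 FPKM, and 1.90 and 0.522 FPKM in the same order. KNL1 and PBK were called higher in 8505C, where 1.85% of all measured genes were. In that line 8 of the 12 genes reached 1 FPKM with the CRABP2 vector and 3 with the empty vector, so several, KNL1, PBK and CEP55 among them, passed the minimum only through the library where they were high, and nothing is read from the number that lay above 0.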
